A study of Rattus norvegicus with 13 samples.

Results

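The genes described here encode transporters of ions, phosphate, zinc and water. They are the genes of the table whose symbols belong to the carrier families *Slc4*, *Slc8*, *Slc9*, *Slc12*, *Slc20*, *Slc24*, *Slc26*, *Slc30*, *Slc34*, *Slc39* and *Slc41*, to the sodium-potassium and calcium pumps (*Atp1a*, *Atp1b*, *Atp2a*, *Atp2b*, *Atp2c*), to the aquaporins, or to the TRP channels of the C, M and V types. *Slc4a1*, the anion exchanger of red blood cells, was left out. This gave 91 of the 14790 genes, in 14 families, with *Slc20* and *Slc34* counted as 1 family. The libraries, 1 per rat, hold RNA of mammary epithelial cells from female Wistar-Furth rats, a strain susceptible to mammary cancer. There were 6 rats aged 6 weeks, entering the window of susceptibility (WOS), and 7 rats aged 10 weeks, leaving it. No treatment or allele is named for either age. Glands were digested with collagenase and ductal fragments collected, on a nylon filter per the labels and by centrifugation per the study's methods. By the latter they still hold stromal fibroblasts and immune cells, so a difference in bulk RNA cannot part a change in the number of cells of a type from a change in RNA per cell.

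A mammary epithelial cell moves ions in a polarized way. The sodium-potassium pump sets the sodium gradient that drives the cotransport of phosphate, chloride and bicarbonate. Calcium is pumped into the endoplasmic reticulum, into the Golgi and out across the membrane. In lactation, zinc, calcium and phosphate are passed into milk, and zinc carriers of the ZnT family (*Slc30*) move zinc out of the cytosol whereas those of the ZIP family (*Slc39*) bring it in.

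The values are treated as counts that the authors scaled by a factor of each library and rounded, and are called normalized counts below. Their totals ran from 13261906 to 15659533 at 6 weeks and from 13766735 to 15402814 at 10 weeks. Gaps among the low whole numbers (1 to 30) were found in 7 of the 13 rats, and in rats 78 and 80 the smallest value above 0 was 2, so low values are coarser there. The leading component of the residuals from the age means held 28.3% of their variation. Rats 75, 78, 80, 81 and 83 had positive scores on it (23.24 to 64.41), and the other 8 negative ones (-45.75 to -4.016). Without these 5, rats 70, 71, 84 and 86 remain at 6 weeks, and 72, 74, 85 and 87 at 10 weeks. The 5 were chosen from the same values, and more of all genes were DE without them (23.5%, against 16.1%). A call gained in that fit is therefore not separate evidence. For the named genes, values without these 5 rats are given where they change a call. Age was compared with limma on log2(normalized count + 1) over all 14790 genes, with Benjamini-Hochberg adjustment over all of them and a threshold of 0.05. A log2 fold change (log2FC) above 0 stands for higher expression at 6 weeks, and for low counts the added 1 makes the change appear smaller. Genes past the threshold are called differentially expressed (DE).

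Epithelial markers were abundant at both ages. The 16 luminal markers summed to between 49816 and 78281 normalized counts at 6 weeks and between 70360 and 93215 at 10 weeks. *Epcam* and *Cdh1*, both epithelial adhesion molecules, and *Kit* were the 3 of them that were DE, all higher at 10 weeks. Of 12 basal markers in the table, 1 was higher at 6 weeks and 1 at 10 weeks. Of 10 fibroblast markers, 5 were DE and higher at 6 weeks, and their sum ran from 107615 to 223685 at 6 weeks against 20027 to 56229 at 10 weeks. Markers higher at 6 weeks also numbered 7 of 8 for mast cells, where *Kit* was the exception, 4 of 8 for pericytes and 5 of 5 rows for red blood cells.

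Of the 91 transporter genes, 11 were DE (12.1%), against 16.1% of all genes tested. Expression of *Aqp7*, *Slc20a2*, *Slc30a1*, *Slc4a8*, *Slc8a2* and *Slc41a3* was higher at 6 weeks, which is 6 genes (6.59%, against 8.71% of all genes). The 5 genes *Slc34a2*, *Slc20a1*, *Slc26a9*, *Slc30a4* and *Trpm3* were higher at 10 weeks (5.49%, against 7.39% of all genes). The median log2FC was 0.091 for the transporters and 0.028 for all genes. For 5 transporters no rat of one age overlapped the other age (5.49%, against 6.07% of all genes), 2 of them higher at 6 weeks (3.29% of all genes) and 3 at 10 weeks (2.78% of all genes). All 3 phosphate cotransporters were DE, and 6 of the 14 families had no DE gene. Without rats 75, 78, 80, 81 and 83, a choice made once the values were known, 20 transporters were DE (22%, against 23.5% of all genes in the same fit). They included 10 of the 11 above, *Slc41a3* being lost.

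To show the regions where regulation of the main phosphate and zinc genes could be read, the 250 bases before the start of 3 of them are given 5′ to 3′ on the gene's strand, from RefSeq on build GRCr8. Promoters were at hand for 71 of the 91 genes, and *Slc20a1*, *Slc20a2* and *Aqp7* were not among them. Capitals mark matches to the core of the metal response element (TGCACNC or TGCGCNC, either strand), the site of the zinc-sensing factor MTF1.
*Slc34a2*, chr14:62143073-62143322, minus strand: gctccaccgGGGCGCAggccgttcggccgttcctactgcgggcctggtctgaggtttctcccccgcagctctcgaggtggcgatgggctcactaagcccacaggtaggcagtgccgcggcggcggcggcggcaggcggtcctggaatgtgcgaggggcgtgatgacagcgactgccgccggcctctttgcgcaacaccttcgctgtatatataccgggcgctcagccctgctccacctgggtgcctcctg
*Slc30a1*, chr13:106021769-106022018, plus strand: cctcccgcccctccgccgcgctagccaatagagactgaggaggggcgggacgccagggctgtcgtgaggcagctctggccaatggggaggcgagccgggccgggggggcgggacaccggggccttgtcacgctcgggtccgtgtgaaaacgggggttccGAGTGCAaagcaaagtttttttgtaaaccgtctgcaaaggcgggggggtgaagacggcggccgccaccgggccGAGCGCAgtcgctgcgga
*Slc30a4*, chr3:130228889-130229138, minus strand: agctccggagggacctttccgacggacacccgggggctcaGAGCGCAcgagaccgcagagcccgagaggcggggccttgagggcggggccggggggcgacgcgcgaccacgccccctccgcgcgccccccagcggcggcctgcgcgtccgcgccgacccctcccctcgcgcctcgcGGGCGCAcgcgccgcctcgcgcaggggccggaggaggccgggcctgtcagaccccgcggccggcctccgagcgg

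The window of *Slc30a1* holds one match to each form, TGCACNC from 91 to 85 bases and TGCGCNC from 18 to 12 bases before the start. *Slc30a4* holds TGCGCNC from 210 to 204 and from 74 to 68 bases, and *Slc34a2* from 241 to 235 bases before the start. At least one match to either form was present in 20.6% of 33469 promoters of this length, so a match is common. The site of STAT factors (GAS, TTCNNNGAA), present in 7.67% of the promoters, had no match in these 3 windows.

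All 3 sodium-phosphate cotransporters were DE, with the largest change in *Slc34a2*. *Slc34a2* (ENSRNOG00000004626) encodes NaPi-IIb, the apical phosphate carrier of secretory epithelia. Its lowest, median and highest normalized counts were 1475, 2072.5 and 2296 at 6 weeks, and 3935, 4402 and 6026 at 10 weeks. Every rat at 10 weeks stood above every younger rat by a wide margin. The means were 1982 ± 305 (SD, n = 6 rats) and 4618 ± 704 (SD, n = 7 rats), with a log2FC of -1.22 (standard error 0.13, adjusted p = 0.00017 from limma), or 2.33-fold lower at 6 weeks. Without any one rat the log2FC stayed between -1.27 and -1.14. Of 11 milk secretion markers, *Plin2* and *Xdh*, both of the milk fat globule, were DE and higher at 10 weeks (log2FC -0.90 and -0.71). The rest were not DE and went both ways. *Csn2*, *Glycam1*, *Csn1s1* and *Csn1s2a* had log2FC of 0.81, 0.67, 0.36 and 0.27. *Csn3*, *Lalba*, *Lao1*, *Btn1a1* and *Wap* had -0.69, -0.72, -0.88, -0.34 and -0.53. The sum of the 11 overlapped between the ages, and their part in the *Slc34a2* difference was not tested.

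*Slc20a1* (ENSRNOG00000018567) encodes PiT-1, a broadly expressed phosphate carrier. It had 5280, 5648 and 6836 normalized counts at 6 weeks (lowest, median and highest), against 7694, 8751 and 11255 at 10 weeks. Here too the ages did not overlap, with a log2FC of -0.67 (standard error 0.11, adjusted p = 0.00208 from limma), or 1.59-fold lower at 6 weeks.

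*Slc20a2* (ENSRNOG00000019490), which encodes the related carrier PiT-2, ran the other way. Counts were 513, 537.5 and 571 at 6 weeks and 343, 361 and 526 at 10 weeks (lowest, median and highest). The 6-week rats were tightly grouped, with an SD of 23.9 around a mean of 540, and only rat 83 among the older rats, at 526, reached into their range. The log2FC was 0.49 (standard error 0.11, adjusted p = 0.0113 from limma), and 0.56 without rat 83. The gene *Smim19* overlaps *Slc20a2* in the GRCr8 annotation, and whether counting used strand is not stated. *Smim19* itself had 90 to 138 normalized counts at 6 weeks and 74 to 149 at 10 weeks (log2FC 0.022, adjusted p = 0.939).

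**Figure D1:**
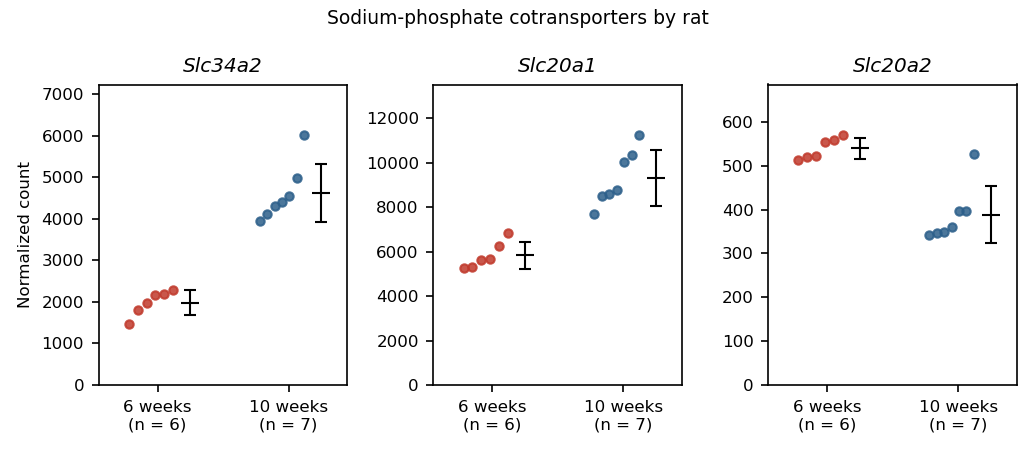
Normalized counts (y axis, from 0) of the 3 sodium-phosphate cotransporters in each rat at 6 weeks (red, n = 6) and 10 weeks (blue, n = 7), points ordered by value, with mean and SD in black. *Slc34a2* and *Slc20a1* are higher in all rats at 10 weeks, whereas *Slc20a2* is higher at 6 weeks except for 1 rat at 10 weeks, at 526.

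Since *Slc20a1* and *Slc20a2* changed in opposite directions, their ratio within a rat, which does not depend on how libraries were scaled, differed more than either gene. The log2 ratio of *Slc20a1* to *Slc20a2* counts lay between 3.21 and 3.71 at 6 weeks and between 3.87 and 4.86 at 10 weeks. Its difference was -1.16 (exact permutation test, two-sided, p = 0.00117, the smallest this test can give, and 0.00816 after adjustment over 14 ratios). Both genes were DE in opposite directions on the same values, so the ratio restates these calls and is not separate support. This is a ratio of counts, and gene length enters it equally at both ages.

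The zinc exporters of the ZnT family held 7 genes, of which 1 was higher at 6 weeks and 1 at 10 weeks. *Slc30a1* (ENSRNOG00000004749) encodes ZnT1, the zinc exporter of the plasma membrane, and is a known target of MTF1. Its counts were 713, 856.5 and 1180 at 6 weeks and 382, 612 and 687 at 10 weeks (lowest, median and highest), with no overlap. The log2FC was 0.63 (standard error 0.16, adjusted p = 0.0178 from limma), or 1.55-fold higher at 6 weeks.

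*Slc30a4* (ENSRNOG00000000170) encodes ZnT4, which loads zinc into vesicles and is needed for normal milk zinc in mice. It had 3537, 3838.5 and 4634 normalized counts at 6 weeks against 4215, 5662 and 6687 at 10 weeks (lowest, median and highest). Of the 6 younger rats, 4 lay below all older rats, and the overlap came from rat 83. The log2FC was -0.48 (standard error 0.12, adjusted p = 0.0178 from limma). Leaving out rats 78 and 80 gave -0.44, no longer DE (adjusted p = 0.053).

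The remaining ZnT genes did not pass the test, with log2FC from -0.14 for *Slc30a3* to 0.57 for *Slc30a6*. *Slc30a5* and *Slc30a7*, carriers of the secretory pathway, had log2FC of 0.092 and 0.20, with 95% intervals of -0.23 to 0.41 and -0.05 to 0.44. None of the 12 ZIP importers was DE with all 13 rats, and 10 of them had an interval within a log2FC of -1 to 1. Nearest to the threshold was *Slc39a7*, a zinc carrier of the endoplasmic reticulum and Golgi, with 688 ± 136 normalized counts (SD, n = 6) at 6 weeks and 504 ± 164 (SD, n = 7) at 10 weeks (adjusted p = 0.125 from limma). Without the 5 rats named above its log2FC was 0.68 and DE (adjusted p = 0.0221). *Slc39a14*, a carrier of zinc and iron, had 2670 ± 372 (SD, n = 6) and 3207 ± 419 (SD, n = 7) normalized counts at 6 and 10 weeks (log2FC -0.26, adjusted p = 0.164), and it was DE at -0.46 without the 5 rats (adjusted p = 0.0351). *Slc39a6* and *Slc39a10*, which are close relatives, had log2FC of -0.20 and -0.043.

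Of the 3 pairs of zinc carriers, the ratio within a rat differed between the ages for 2. The log2 ratio of the exporter *Slc30a1* to the surface importer *Slc39a1* was -1.49 ± 0.28 (SD, n = 6) at 6 weeks and -2.01 ± 0.24 (SD, n = 7) at 10 weeks (difference 0.52, exact permutation p = 0.0035, adjusted p = 0.0122). For the ZIP genes *Slc39a8* and *Slc39a14* it was -3.05 ± 0.24 (SD, n = 6) and -3.57 ± 0.20 (SD, n = 7), a difference of 0.52 as well (exact permutation p = 0.0035, adjusted p = 0.0122). In the first pair *Slc30a1* was DE alone on the same values, so its ratio is not separate support. *Slc39a1* had a log2FC of 0.11 (adjusted p = 0.534 from limma). In the second pair neither gene passed the test alone. The ages overlapped in both pairs.

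**Figure D2:**
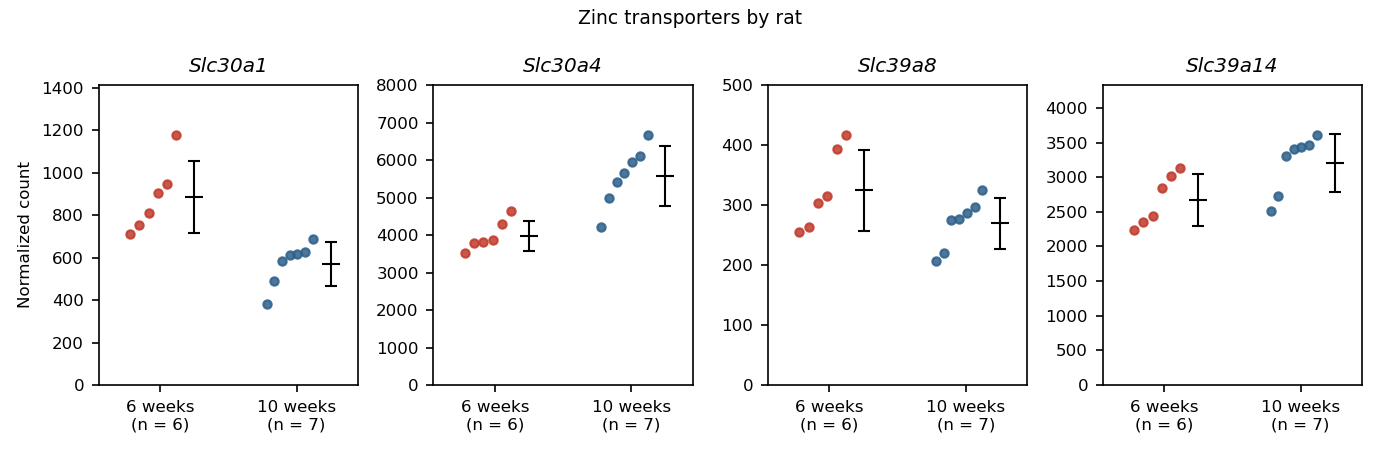
Normalized counts (y axis, from 0) of the zinc exporters *Slc30a1* and *Slc30a4* and the zinc importers *Slc39a8* and *Slc39a14* in each rat, with mean and SD in black. *Slc30a1* is higher in all 6 rats at 6 weeks (red) than in all 7 at 10 weeks (blue), *Slc30a4* is mostly higher at 10 weeks, and the 2 importers overlap between the ages.

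The sodium-potassium pump showed no DE gene among 6. The beta subunits *Atp1b1* and *Atp1b3*, which carry the pump to the membrane, had log2FC of -0.11 (95% interval -0.36 to 0.14) and 0.18 (-0.12 to 0.48), and their ratio had an adjusted p of 0.161 (exact permutation test). For both genes a doubling or halving between the ages lies outside the interval.

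With all 13 rats no calcium pump was DE among 7. *Atp2a2*, the pump of the endoplasmic reticulum (SERCA2), had 8166 ± 642 normalized counts (SD, n = 6) at 6 weeks and 8361 ± 570 (SD, n = 7) at 10 weeks. Its log2FC of -0.035 had the interval -0.22 to 0.15, and its sign turned with scaling to equal totals. *Atp2b1*, a calcium pump of the plasma membrane, had 1963, 2511.5 and 2567 normalized counts at 6 weeks and 2120, 3206 and 3473 at 10 weeks (lowest, median and highest). All younger rats lay below the 10-week median, but the log2FC of -0.31 did not pass (adjusted p = 0.129 from limma). Without the 5 rats it was -0.54 and DE (adjusted p = 0.0175). *Atp2b4*, its relative, had 1352 ± 275 (SD, n = 6) and 1169 ± 241 (SD, n = 7), with a log2FC of 0.21 (adjusted p = 0.403).

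Set against each other within a rat, these surface pumps parted the ages fully. The log2 ratio of *Atp2b1* to *Atp2b4* lay between 0.61 and 1.08 at 6 weeks and between 1.10 and 1.66 at 10 weeks, a difference of -0.52 (exact permutation p = 0.00117, adjusted p = 0.00816). The gap between the ages is small, and the ratio Atp2b1/Atp2b4 kept an adjusted p of at most 0.0177 when each rat was left out. *Atp2b2*, the pump that exports most milk calcium in lactation, was near the floor, with 9 to 18 normalized counts at 6 weeks and 0 to 14 at 10 weeks (adjusted p = 0.159). The other 10 of the 14 pairs had adjusted p from 0.0914 to 0.945. *Atp2c1* and *Atp2c2*, the Golgi pumps, had log2FC of 0.091 and 0.14, and *Atp2a3*, the pump found in many blood and endothelial cells, had 0.53 (adjusted p = 0.152). Without the 5 rats *Atp2a3* was DE at 0.58 (adjusted p = 0.0494).

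**Figure D3:**
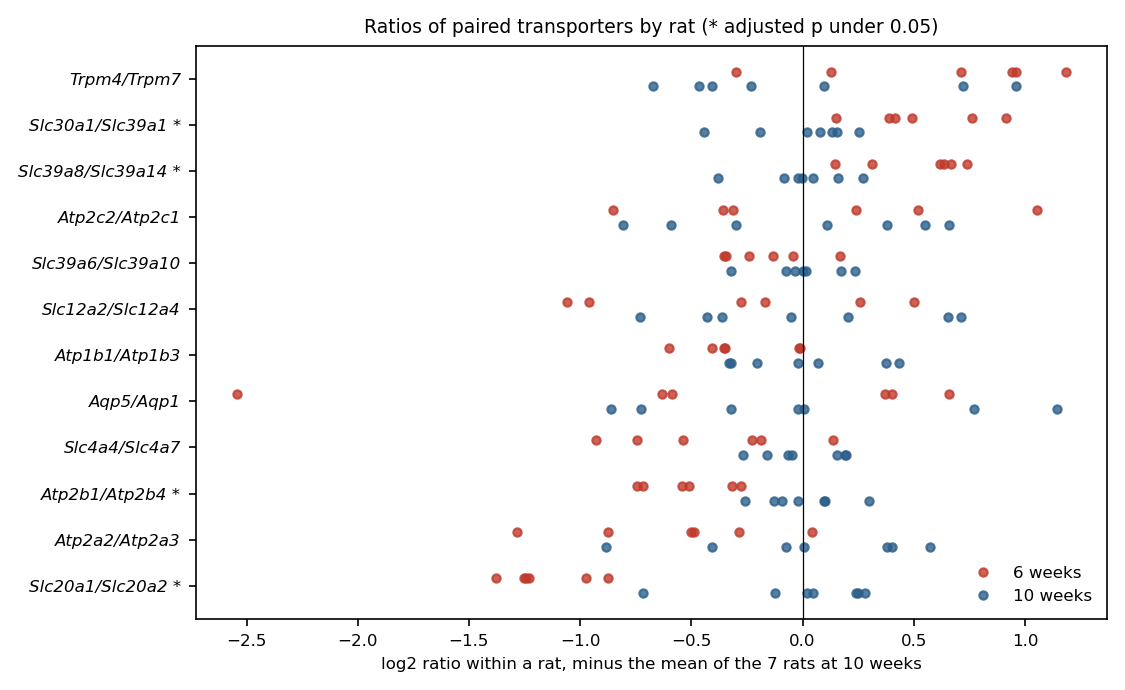
Log2 ratio of the counts of paired transporters within each rat, minus the mean of the 7 rats at 10 weeks (x axis), for 12 of the 14 pairs ordered by the difference between the ages. Red points are rats at 6 weeks, blue points are rats at 10 weeks, and asterisks mark the 4 pairs with an adjusted p under 0.05, of which *Slc20a1*/*Slc20a2* and *Atp2b1*/*Atp2b4* show no overlap.

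The sodium-calcium exchangers held 1 DE gene of 2, at low counts. *Slc8a2* (ENSRNOG00000001492), a sodium-calcium exchanger best known from brain, had 17, 22.5 and 52 normalized counts at 6 weeks and 4, 9 and 27 at 10 weeks (lowest, median and highest). The highest value was that of rat 80, and all younger rats stood above the 10-week median. Its log2FC, 1.15 (standard error 0.37), passed narrowly (adjusted p = 0.0485 from limma). Removing 1 rat at a time, it passed in 2 of 13 fits, and it was 0.94 without rat 80 (adjusted p = 0.0856). It passed in 7 of 10 other alternatives, and failed with median-ratio scaling, a pseudocount of 0.1 and limma-trend. Its widely expressed relative *Slc8a1* had a log2FC of 0.13 (interval -0.24 to 0.50). None of the 5 potassium-dependent exchangers (*Slc24*) was DE, and *Slc24a3* came nearest, with 51.7 ± 8.29 (SD, n = 6) and 39.9 ± 8.28 (SD, n = 7) normalized counts (adjusted p = 0.102).

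Among chloride and bicarbonate carriers, *Slc26a9* stood out. *Slc26a9* (ENSRNOG00000029514) encodes a chloride channel and transporter of airway and gastric epithelium. Its counts were 42, 61.5 and 86 at 6 weeks and 128, 147 and 196 at 10 weeks (lowest, median and highest), so that every older rat exceeded every younger one. The log2FC of -1.35 (standard error 0.19, adjusted p = 0.000612 from limma) is a level 2.55-fold lower at 6 weeks. The other 7 *Slc26* genes did not pass, with log2FC from -0.15 to 0.44. *Slc26a2*, the sulfate carrier, had a log2FC of 0.15 (interval -0.21 to 0.51).

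Bicarbonate carriers (*Slc4*) held 1 DE gene of 7. *Slc4a8* (ENSRNOG00000028879), a sodium-driven chloride-bicarbonate exchanger, had 45, 50 and 106 normalized counts at 6 weeks and 16, 24 and 57 at 10 weeks (lowest, median and highest). Rat 80 held the high value at 6 weeks, and rats 81 and 83, at 45 and 57, reached the range of the younger rats. The log2FC of 0.97 (standard error 0.29, adjusted p = 0.04 from limma) passed in 2 of 13 fits with 1 rat removed, and was 0.72 without rats 78 and 80 (adjusted p = 0.109). *Slc4a4*, the electrogenic sodium-bicarbonate cotransporter NBCe1, had 634 ± 173 (SD, n = 6) and 849 ± 104 (SD, n = 7) normalized counts. Each younger rat lay below the 10-week median of 851, though its log2FC of -0.46 did not pass (adjusted p = 0.0841). Without rats 75, 78, 80, 81 and 83 it was -0.72 and DE (adjusted p = 0.0271). *Slc4a2* and *Slc4a7* had log2FC of 0.085 and -0.044.

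With all 13 rats no cation-chloride cotransporter (*Slc12*, 6 genes) or sodium-proton exchanger (*Slc9*, 8 genes) was DE. *Slc12a2*, the basolateral cotransporter NKCC1 that regulates chloride in ductal cells, had 2891 to 4748 normalized counts at 6 weeks and 3410 to 5279 at 10 weeks (log2FC -0.21, interval -0.51 to 0.10). The potassium-chloride cotransporters *Slc12a4* and *Slc12a7* had log2FC of 0.077 and -0.027. *Slc12a9* came nearest to the threshold in its family, with a log2FC of 0.68 (adjusted p = 0.141), and was DE at 1.01 without the 5 rats (adjusted p = 0.023). *Slc9a7*, an exchanger of the trans-Golgi network, had a log2FC of -0.49 (adjusted p = 0.186), and was DE at -0.50 without the 5 rats (adjusted p = 0.0482).

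The aquaporin *Aqp7* (ENSRNOG00000009686), a water and glycerol channel best known from fat cells, was the gene with the largest log2FC of the group. It had 19, 24.5 and 37 normalized counts at 6 weeks and 5, 8 and 10 at 10 weeks (lowest, median and highest). The ages did not overlap, with a log2FC of 1.64 (standard error 0.18, adjusted p = 0.000182 from limma), or 3.12-fold on the scale of log2(normalized count + 1). Adipocyte markers moved in part with it. Of 8 in the table, *Adipoq*, *Plin1* and *Cfd* were DE and higher at 6 weeks, with log2FC of 2.41, 1.94 and 1.48. Counts were low for *Adipoq* (20 to 56 at 6 weeks, 0 to 12 at 10 weeks) and *Plin1* (4 to 19 and 0 to 6). *Fabp4*, *Pparg*, *Cidec*, *Lipe* and *Plin4* were not DE, with -0.09, 0.15, 0.50, -0.38 and -0.13. The sum of the 8 overlapped, at 1841 to 2678 at 6 weeks and 1994 to 3051 at 10 weeks. The part of adipocytes in the *Aqp7* difference was not tested.

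*Aqp1*, the water channel of endothelium, had 3383 ± 447 (SD, n = 6) and 4209 ± 993 (SD, n = 7) normalized counts at 6 and 10 weeks. All younger rats lay below the 10-week median, yet the log2FC of -0.29 did not pass (adjusted p = 0.239 from limma). Without the 5 rats it was -0.57 and DE (adjusted p = 0.0446). Of 10 endothelial markers, 1 was DE, *Cldn5*, higher at 6 weeks. *Aqp5*, the apical water channel of glands, ranged from 41 to 352 at 6 weeks and from 110 to 508 at 10 weeks, too wide a spread for a difference to be seen (interval -1.76 to 0.40). *Aqp3*, a basolateral water and glycerol channel, had 15 to 25 normalized counts at 6 weeks and 17 to 74 at 10 weeks (adjusted p = 0.16).

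Among 12 TRP channels, *Trpm3* (ENSRNOG00000027770), a heat- and steroid-sensitive cation channel, was DE. It had 341, 494 and 604 normalized counts at 6 weeks and 449, 925 and 1032 at 10 weeks (lowest, median and highest). Rat 81 gave the lowest value at 10 weeks, and 3 of the 6 younger rats lay below it. The log2FC was -0.78 (standard error 0.21, adjusted p = 0.0257 from limma), and it passed in 9 of 13 fits with 1 rat removed, the exceptions being rats 70, 72, 74 and 84 (adjusted p up to 0.0633). In the GRCr8 annotation 10 other records overlap this long gene, none of them protein coding and one of them the microRNA gene *Mir204*. *Trpm7*, a channel with a kinase domain that takes up magnesium and calcium, had 2104 ± 342 (SD, n = 6) and 2400 ± 380 (SD, n = 7) normalized counts (log2FC -0.19, adjusted p = 0.372). *Trpm4*, a calcium-activated sodium channel, had a log2FC of 0.42 (adjusted p = 0.223), and *Trpv6*, the epithelial calcium channel, had 6 to 38 and 1 to 37 normalized counts.

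Of the 3 magnesium transporters (*Slc41*), *Slc41a3* (ENSRNOG00000045821) was DE at low counts. It had 11, 18 and 27 normalized counts at 6 weeks and 8, 12 and 16 at 10 weeks (lowest, median and highest). The log2FC of 0.66 (standard error 0.21, adjusted p = 0.049 from limma) passed in 2 of 13 fits with 1 rat removed, and in 3 of 10 other alternatives. Without the 5 rats it was 0.53 and no longer DE (adjusted p = 0.17). *Slc41a1* and *Slc41a2* had log2FC of -0.24 and 0.33, neither past the threshold.

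**Figure D4:**
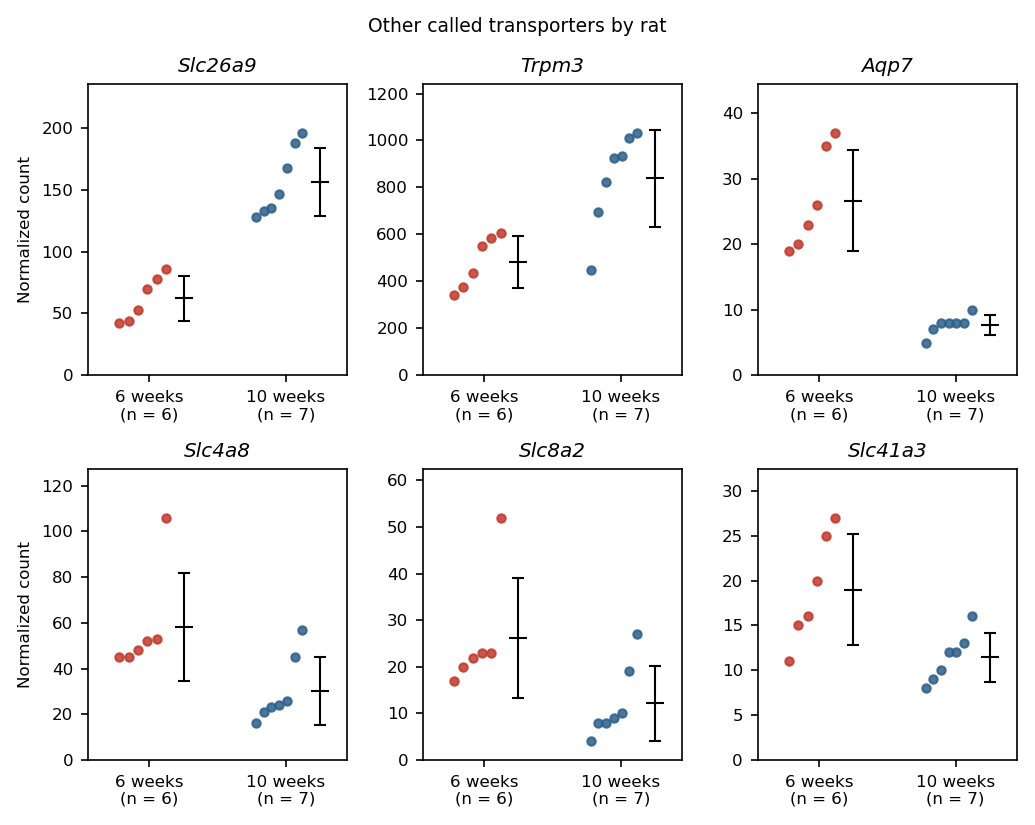
Normalized counts (y axis, from 0) of the other 6 transporters past the threshold in each rat, at 6 weeks (red) and 10 weeks (blue), points ordered by value, with mean and SD in black. *Slc26a9* and *Aqp7* do not overlap between the ages, whereas *Trpm3*, *Slc4a8*, *Slc8a2* and *Slc41a3* do, and the highest values of *Slc4a8* and *Slc8a2* at 6 weeks, 106 and 52, are both from rat 80.

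Of the marker lists above, 5 of 10 fibroblast genes were DE and higher at 6 weeks and 3 of 16 luminal genes at 10 weeks, and the part of cell composition in the differences above was not tested. The DE transporters were also set against the summed luminal markers of the same rat. This measure was added once the values were known and moves all genes of a rat by the same amount. The luminal sum had a median of 71454.5 at 6 weeks and 84988 at 10 weeks, so every difference moves upward. Values went from -1.22 to -0.95 for *Slc34a2* and from 1.64 to 1.91 for *Aqp7*. Genes higher at 10 weeks thus appear less changed, and those higher at 6 weeks more so. The mean log2 difference, 6 minus 10 weeks, was then -0.95 for *Slc34a2*, -1.08 for *Slc26a9*, -0.40 for *Slc20a1*, -0.51 for *Trpm3* and -0.20 for *Slc30a4*. For the genes higher at 6 weeks it ran from 0.76 for *Slc20a2* to 1.91 for *Aqp7*. In an exact permutation test adjusted over the DE transporters, *Trpm3* and *Slc30a4* did not pass (adjusted p = 0.0974 and 0.279). *Slc20a1* passed narrowly (adjusted p = 0.0484). These genes had been chosen as DE on the same values.

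The other genes of these pathways gave a mixed picture. Counts of DE genes in the 6 lists stand beside 8.71% of all genes higher at 6 weeks and 7.39% at 10 weeks. The lists were not tested as sets, so single named genes do not speak for a pathway. Among 24 regulators of pumps and carriers, 1 was higher at 6 weeks and 2 at 10 weeks. *Wnk4*, a kinase that controls chloride cotransport, had a log2FC of 1.01 (adjusted p = 0.0475 from limma), and *Pln*, the inhibitor of SERCA pumps, had -0.82 (adjusted p = 0.0174). Of 23 rows for calcium entry, sensing and storage, 3 were higher at 6 weeks and 2 at 10 weeks. Of 2 rows of *Calm2*, a calmodulin gene, ENSRNOG00000016770 led the former with 0.86 (adjusted p = 0.0278), whereas the more abundant ENSRNOG00000030871 had 0.19 (adjusted p = 0.439). *Itpr2*, a calcium release channel, led the latter with -0.82 (adjusted p = 0.00049), from 963 to 1404 normalized counts at 6 weeks and from 1750 to 2203 at 10 weeks.

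Of 31 chloride, sodium and potassium channels, 1 was higher at 6 weeks (*Clcn5*, an endosomal chloride-proton exchanger, log2FC 0.52, adjusted p = 0.033 from limma) and 3 at 10 weeks. The latter were led by *Kcnj15*, a potassium channel, with -1.09 (adjusted p = 0.0183). For zinc, 7 buffering and sensing genes were in the table, and *Gpr39*, a zinc-sensing receptor, was DE at 13.3 ± 4.23 (SD, n = 6) and 24.4 ± 4.43 (SD, n = 7) normalized counts (log2FC -0.85, adjusted p = 0.00795).

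Partners in phosphate and bicarbonate handling numbered 15, with 2 DE genes higher at 6 weeks and 1 at 10 weeks. *Car3*, a carbonic anhydrase of muscle and fat, had 58 to 165 normalized counts at 6 weeks and 5 to 33 at 10 weeks (log2FC 3.30, adjusted p = 0.000218 from limma). *Car9*, a carbonic anhydrase at the cell surface, had a log2FC of -0.90 (adjusted p = 0.0477). Of 19 tight junction genes, 2 were higher at 6 weeks and 1 at 10 weeks, and *Cldn10*, a claudin, led the former with 1.49 (adjusted p = 0.0406). The medians of the 6 lists lay between -0.19 and 0.16, against 0.028 for all genes.

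**Figure D5:**
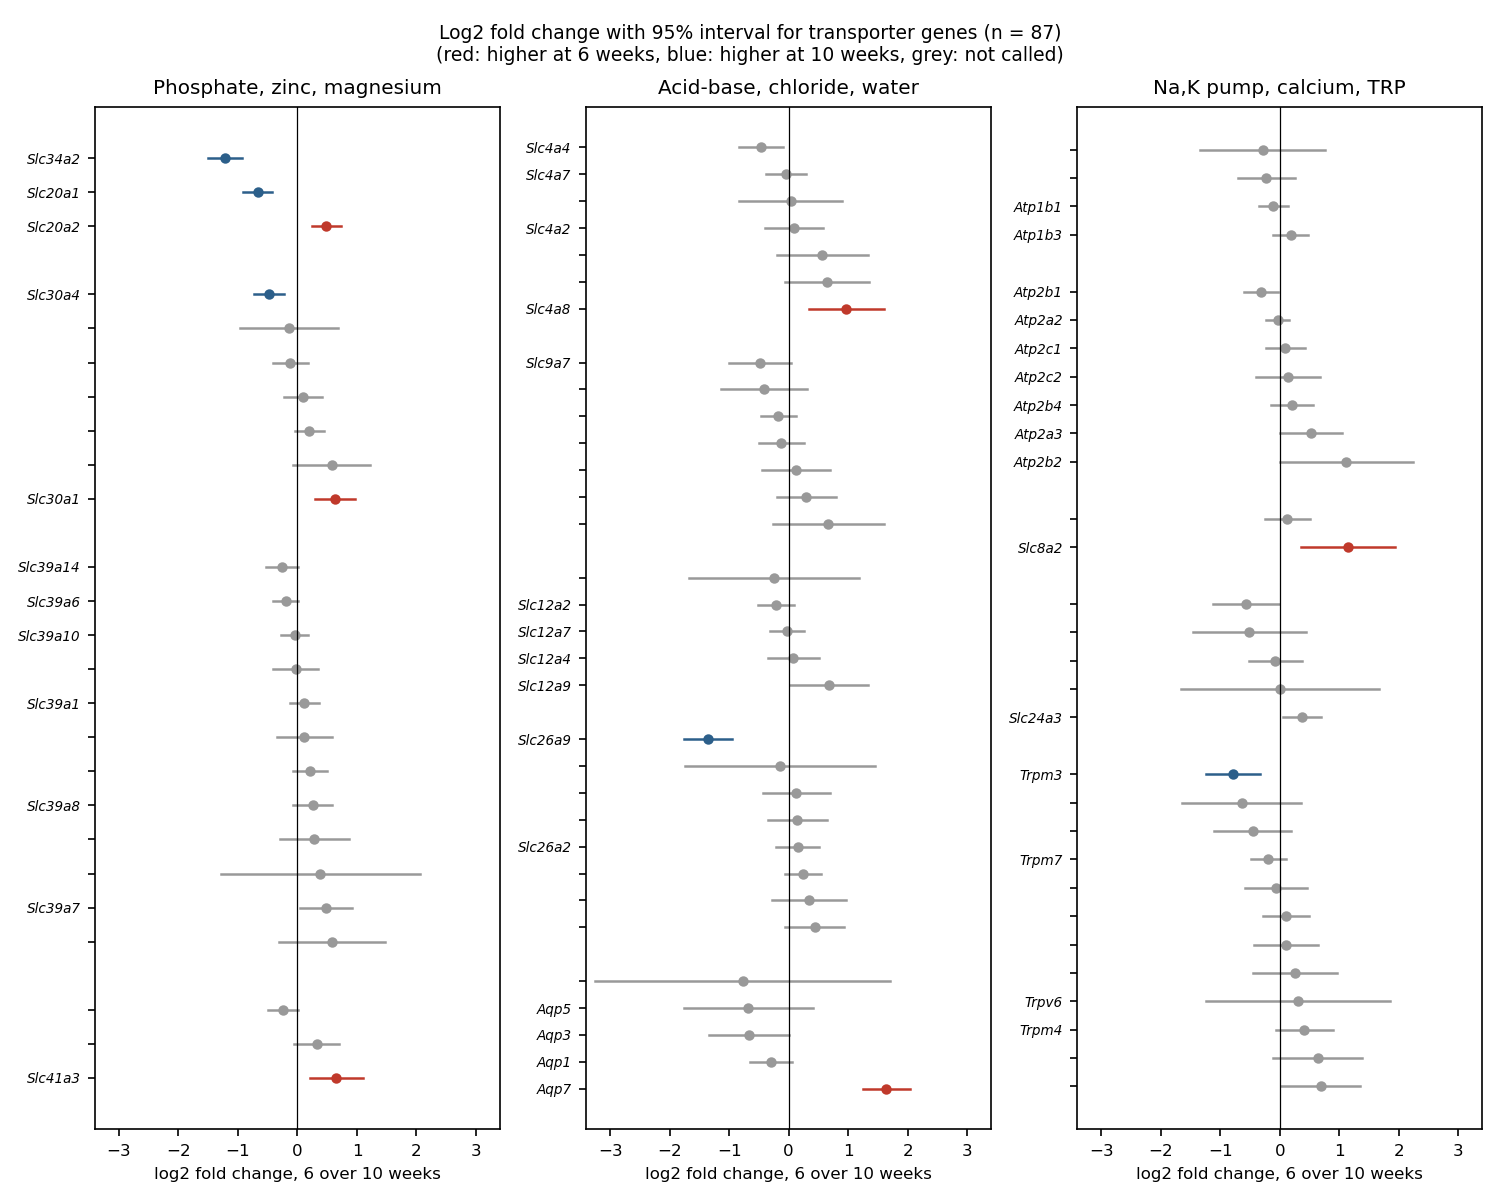
Log2 fold change, 6 over 10 weeks (x axis), with its 95% interval for 87 of the 91 transporter genes, grouped by family, with names for those that the naming rule chose. Red marks the 6 genes DE and higher at 6 weeks, blue the 5 higher at 10 weeks and grey those not past the threshold, most of which have an interval within -1 to 1.

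Precision differed among the genes that did not pass. For 55 of these 80 genes the 95% interval of the log2FC lay within -1 to 1, so a difference of 2-fold or more was outside it. In the other 25, among them *Aqp5*, *Aqp8*, *Atp2b2*, *Slc12a8* and *Trpv6*, the interval reached beyond this range, so such a difference could not be set aside. A mean under 50 normalized counts was found for 36 of the 91 genes.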

How the data were processed

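RNA of mammary epithelial cells from 13 rats (6 at 6 weeks, 7 at 10 weeks) was sequenced, and groups were taken from the sample titles. The authors estimated counts with RSEM 1.2.22. The values per rat in the deposited table are whole numbers with similar totals and missing low whole numbers, and are treated as a score, namely counts scaled per library and rounded by the authors. The factor and the annotation are not given in the sources used here, and the labels name build rn5. The depth before scaling is unknown, so no counting interval is given. The authors' columns of fold changes and p-values, and a word on nuclear or cytoplasmic location, were not used. Each rat counts as 1 replicate.

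Ages were compared with limma 3.58.1 in R 4.3.3 on log2(value + 1) with no covariate, and all 14790 genes met the minimum mean of 1. P-values were two-sided and Benjamini-Hochberg adjusted. Tested on simulated data for this comparison over 14790 genes, limma found 36 of 100 changes of 1 on the log2 scale, 100 of 100 changes of 2 and 0 of 14590 unchanged genes. The simulation gave all genes the same spread setting and changed 200 of them, so these shares are not the power for the real genes. Ratios of 14 gene pairs, and of the DE transporters to the summed luminal markers, were tested by exact permutation in Python 3.11.15. Markers and 6 pathway lists were written by hand. Named are the DE transporters, the smallest p of each family without one, known mammary secretory carriers, markers of other cell types and the paired genes, and per pathway list the largest DE change in each direction. *Slc30a2*, *Atp2a1* and *Aqp4* were on this list and are not analysed here, and some genes that the rule names, with their pairs, are not reported here. Members and lists were chosen with earlier results of these data known. Alternatives were other scalings, 0.1 as pseudocount, at least 10 in every rat, no minimum, limma-trend, sample weights, the leading residual component as covariate and each rat left out in turn. Leaving out sets of rats was added after the data were seen.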

Additional observations from a re-analysis of the deposited data

Results flagged for a closer look

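Within each age, single rats were compared with the rest of their group for the 42 named transporters, by the gap to the nearest rat over the range of the group. Among 84 groups of values, 5 had a rat past Dixon's 95% limit, and chance flags about 1 in 20 groups. Rat 80 was the rat apart in 3 of them at 6 weeks, with 106 normalized counts of *Slc4a8* (45 to 53 in the others), 52 of *Slc8a2* (17 to 23) and 169 of *Atp1b1* (211 to 226). At 10 weeks, rat 83 had 526 normalized counts of *Slc20a2* (343 to 397 in the others) and rat 85 had 2730 of *Slc39a1* (2083 to 2301).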

How the results depend on the processing

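No paired analysis was possible because rats of the 2 ages share no number in the labels. *Slc34a2*, *Slc26a9*, *Slc20a1*, *Slc20a2*, *Slc30a1* and *Aqp7* passed the threshold in every fit that could be made, save that *Aqp7* was not tested with a minimum of 10 in every rat. The 6 transporters higher at 6 weeks became 3 with that minimum, 10 with the leading residual component as covariate, 10 without rats 75, 78, 80, 81 and 83, and 14 with sample weights, and 3 to 5 when each rat was left out. The 5 higher at 10 weeks became 10 without those 5 rats and 14 with sample weights, and 4 to 6 when each rat was left out. Pathway genes higher at 6 weeks, 9 in all, became 25 with sample weights and 4 to 10 with a rat left out, and the 10 higher at 10 weeks became 17 with sample weights. Calls rose over all genes too, from 16.1% to 23.8% with the residual component, 23.5% without the 5 rats and 38.2% with sample weights, against 12.1%, 16.5%, 22% and 30.8% of the transporters. The causes were not tested, beyond the fewer genes tested under the minimum.

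Signs were followed for the 42 named transporters and the ratios described, and turned only for those not past the threshold. Those of the other transporters and of the marker and pathway genes were not followed. Sample weights gave 0.019 for *Atp1b1*, -0.12 for *Slc26a2*, 0.012 for *Atp2a2*, -0.053 for *Atp2b4* and -0.030 for *Slc12a4*. Equal totals gave 0.012 for *Atp2a2*, 0.020 for *Slc12a7*, 0.0033 for *Slc4a7* and 0.0038 for *Slc39a10*. Without the 5 rats, *Atp1b3* had -0.039, *Trpv6* -0.13, *Atp2b4* -0.068 and *Slc12a7* 0.028. With single rats left out, values ran from -0.026 to 0.22 for *Slc4a2*, -0.20 to 0.61 for *Trpv6*, -0.028 to 0.16 for *Slc12a4*, -0.085 to 0.048 for *Slc12a7* and -0.18 to 0.033 for *Slc4a7*. The ratios ran from -0.15 to 0.23 for *Atp2c2*/*Atp2c1* and -0.60 to 0.043 for *Aqp5*/*Aqp1*.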
